A study of Mus musculus with 24 samples.

Results

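The 66 genes described here are named for ribosomal proteins, translation initiation factors and enzymes that act on the elongation factors. They were chosen by symbol alone, from names beginning with Rpl, Rps, Rplp or Rpsp, Eif or Eef followed by a number. Symbols beginning with Rps6k (kinases) and symbols of pseudogenes ending in -ps were left out. Only rows of the deposited peak table that were not called Intron or Intergenic were used, and the counts of a gene's rows were summed. The 66 genes are part of 7702 with such a row, and they hold 115 of 13749 rows. The ribosomal group has 31 genes: 20 of the large subunit, 10 of the small subunit, and Rps19bp1, whose product binds a small subunit protein and is not part of the ribosome. The other 35 are called translation factor genes below. They comprise 12 genes of eIF1 and eIF2 (with the eIF2B subunits and 2 eIF2 kinases), 6 of eIF3, 9 of eIF4, 3 of eIF5 and eIF6, and 5 genes of enzymes that modify elongation factors. The elongation factors themselves are not analysed here. In the GENCODE vM21 annotation 153 protein-coding genes fit the same rule on symbols, of which 63 are among the 66. The other 3 of the 66 are not listed there as protein coding under the same symbol, and 29 of the 31 ribosomal genes are. The rows of Rpl37rt and Rps4l overlap neither coding sequence nor an untranslated region, though both are counted as subunit genes.

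A ribosome has a small subunit, which reads the mRNA, and a large subunit, which joins amino acids. Initiation factors bring both to the start codon: eIF4E binds the mRNA cap, eIF4G and the helicase eIF4A prepare the mRNA, eIF2 carries the initiator tRNA, and eIF3 holds the small subunit open. The 4E-binding proteins block eIF4E until mTOR phosphorylates them, and mTOR also controls the translation of mRNAs that begin with a terminal oligopyrimidine (TOP) tract, the class to which most ribosomal protein mRNAs belong.

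The study immunoprecipitated RNA bound to STAU2, a double-stranded RNA-binding protein of neural cells, from the brain cortex of C57BL/6 mouse embryos. Groups were taken on embryonic days E11.5 and E13.5, then E15.5 and E17.5, with 3 immunoprecipitations and 3 inputs of total RNA at each stage, and the labels name no mutant allele and no treatment. The design asks how STAU2-bound RNA changes as the cortex passes from dividing neuroepithelium to neurons. The table's 12 count columns are named by stage and number only, which fit a STAU2 library and an input library equally. Because the table lists peaks, they were taken to be the STAU2 libraries, and all results depend on this choice. No input library was analysed here, so RNA abundance and STAU2 binding cannot be told apart, nor can fewer cells of a type and less RNA per cell. Nothing in the labels says that replicates came from separate embryos, so the spread that p-values measure may be technical.

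Transcript starts are shown first, because a TOP start is the sequence feature by which ribosomal protein mRNAs are recognised, and the changes described below can be read beside it. Each line gives 30 bases of the RefSeq promoter windows (GRCm38.p6), from 10 bases before the annotated start to 20 bases from it, on the strand of the gene. Capitals mark the tract: a C within 5 bases of the start, before or after it, followed by at least 4 pyrimidines without a break. The first 6 lines are ribosomal protein genes with a tract, the next 4 are translation factor genes with one, and the last 6 are genes without one. They were picked with their changes known, and both sets hold genes that fell and genes that did not.
Rpl28, chr7:4792955-4792984, plus strand: tctcgtgtctCTCTTTCCgtctccggccgc
Rpl12, chr2:32961702-32961731, plus strand: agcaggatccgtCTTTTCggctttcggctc
Rps27l, chr9:66946076-66946105, plus strand: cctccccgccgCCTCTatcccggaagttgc
Rps23, chr13:90923112-90923141, plus strand: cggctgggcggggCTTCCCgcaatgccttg
Rpl38, chr11:114668570-114668599, plus strand: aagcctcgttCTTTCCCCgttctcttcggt
Rps27, chr3:90213629-90213658, minus strand: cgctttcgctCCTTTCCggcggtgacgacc
Eif3f, chr7:108934405-108934434, plus strand: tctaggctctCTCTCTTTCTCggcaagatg
Eif2s3x, chrX:94212632-94212661, minus strand: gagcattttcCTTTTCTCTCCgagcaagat
Eif2s3y, chrY:1010585-1010614, plus strand: ggccacagccaCTTCCTTCTTTCgtgagca
Eif2ak1, chr5:143817782-143817811, plus strand: cgggaCTTCCgttggctcttgtgttacttc
Rpl6, chr5:121204491-121204520, plus strand: acctcccgtcattgcttatagaccggaagc
Eif4ebp2, chr10:61452650-61452679, minus strand: cgcagcgggacgaccgggcgagagcaggcg
Rps3, chr7:99483690-99483719, minus strand: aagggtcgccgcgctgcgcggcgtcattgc
Eif4a1, chr11:69672404-69672433, minus strand: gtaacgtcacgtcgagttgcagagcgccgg
Eif1b, chr9:120492596-120492625, plus strand: gcgcggggctaaatacgcggcgccggccat
Eif2b4, chr5:31193120-31193149, minus strand: cccagtgcacgccggaagttgtagtccgct

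A window was matched for 52 of the 66 genes by symbol. A tract was found in 11 of 24 ribosomal genes (45.8%) and in 8 of 28 translation factor genes (28.6%). It was found in 1418 of 5896 genes of the whole table (24.1%) and in 21.2% of all genes with a RefSeq window. Only the sense strand was read, since the tract belongs to the RNA, and no other motif was searched. The tract of Eif2ak1 ends just before the annotated start, so it lies outside the annotated transcript. This gene is still counted among those with a tract, here and below. A match is a description of these letters at an annotated start, not a measured transcript end.

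The libraries held 1954160 to 2454846 counts over gene rows at E11.5 and 3365054 to 4693793 at the later stages, of which the 66 genes took 109411 to 155211 and 79671 to 232972. The E11.5 libraries stood apart. Rows called Intron held 56.3% to 64.0% of their gene counts against 22.6% to 34.1% later, and the 10 most abundant genes held 21.1% to 24.7% of counts against 8.95% to 12%. Comparisons with E11.5 were therefore repeated from E13.5 without those libraries. The 4 libraries numbered 2 also differed from the rest. Rows on the strand opposite to the peaks of the 66 genes held 10.9% to 13.6% of both strands' counts in them and 3.35% to 5.86% in the other 8. They had the lowest ribosomal share at every stage, and each stage holds 1 of them.

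The levels below are in CPM, that is counts relative to each library's total over the genes tested, after edgeR's TMM scaling. They are given for each library or as mean ± SD with n = 3. Changes are log2 values ± standard error from edgeR's quasi-likelihood F test, and a gene is said to have risen or fallen where its Benjamini-Hochberg adjusted p over all 7651 genes tested was below 0.05. All 66 genes passed the filter on low counts and were tested. Consecutive comparisons share libraries, and both comparisons with E11.5 share all 3 of its libraries.

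RNA of the ribosomal genes took a smaller share of the counts over the gene rows used here at each later stage, on average. The summed level of the 31 ribosomal genes was 65365, 58927 and 64795 CPM in the E11.5 libraries and 38747, 28510 and 42405 CPM at E13.5. It was 27765, 23436 and 30462 CPM at E15.5 and 24146, 15821 and 23196 CPM at E17.5. The E11.5 libraries lay above all others, whereas the ranges of neighbouring later stages overlapped. The 35 translation factor genes summed to 9319 ± 768, 7912 ± 280, 7086 ± 530 and 7619 ± 199 CPM in stage order, with all 3 E11.5 libraries (8626 to 10145 CPM) above all later ones (8235 CPM at most). With only rows called 3UTR their mean sums were 11197, 8108, 7240 and 6695 CPM. Unscaled shares of the counts over these gene rows were 5.24% ± 0.40, 3.88% ± 0.79, 3.02% ± 0.47 and 2.16% ± 0.48 for the ribosomal genes in stage order. The translation factor genes took 0.774% ± 0.07, 0.84% ± 0.04, 0.786% ± 0.08 and 0.781% ± 0.03. Their mean was thus lowest at E11.5 without scaling and highest there with TMM.

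**Figure D1:**
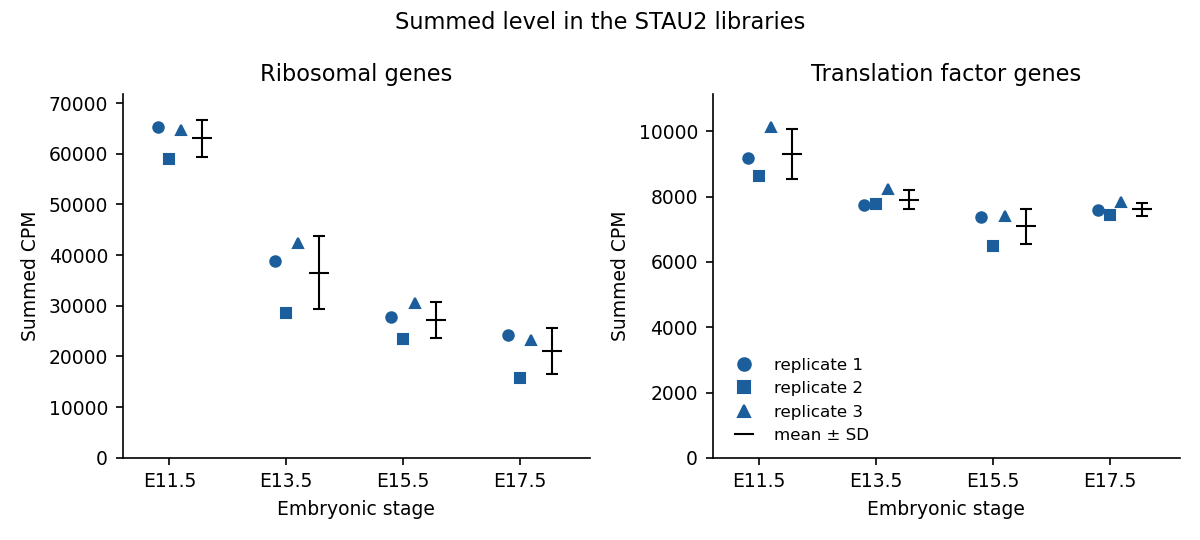
Summed level in CPM (vertical axes, each from 0) of the 31 ribosomal genes and the 35 translation factor genes in each of the 12 libraries, by embryonic stage. Symbols are replicates and black bars are mean ± SD; the ribosomal sum lies between 58927 and 65365 CPM at E11.5 and between 15821 and 24146 CPM at E17.5.

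Over the 4 stages together 44 of the 66 genes changed, against 54.9% of all genes tested. From E11.5 to E13.5, 3 rose and 18 fell, where 25.3% of all genes changed (14.0% rose and 11.3% fell). From E13.5 to E15.5 none passed, where 0.745% of all genes did (0.196% higher and 0.549% lower). There edgeR gave 4 of the 66 an unadjusted p below 0.05, and DESeq2 called 0. From E15.5 to E17.5, 5 rose and 5 fell, where 21.9% of all genes changed (9.74% rose and 12.2% fell). Between E11.5 and E17.5, 9 rose and 36 fell, where 58.6% of all genes changed (29.8% rose and 28.8% fell). Read without a test, all 3 libraries of E13.5 lay below all 3 of E11.5 in 25 of the 66 genes and above in 4, where 17.7% and 21.7% of all genes did so. The same counts were 10 and 0 from E13.5 to E15.5 (7.61% and 6.94% of all genes) and 10 and 7 from E15.5 to E17.5 (19.7% and 17.7%). Between E11.5 and E17.5 they were 37 and 12 (31.0% and 32.1%).

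The falls were mostly ribosomal. Of the 31 ribosomal genes 13 fell from E11.5 to E13.5, 0 from E13.5 to E15.5 and 3 from E15.5 to E17.5, and 24 fell between E11.5 and E17.5. Only Rps19bp1 rose in any of these comparisons. Their median log2 changes were -0.84, -0.44 and -0.33 over the 3 steps and -1.61 over the whole course, beside medians of 0.08, -0.005, -0.02 and 0.04 for all genes tested. In the middle step no ribosomal gene passed, but 30 of 31 lay below 0. Of the 35 translation factor genes 3 rose and 5 fell in the first step, 5 rose and 2 fell in the last, and 8 rose and 12 fell over the whole course. Their medians were -0.02, -0.08, -0.005 and -0.06. With scaling by the library total the median of all genes itself shifts to 0.44 from E11.5 to E13.5 and to 0.34 from E11.5 to E17.5. The ribosomal medians then stand at -0.48 and -1.30, with 7 and 21 genes falling, and those of the translation factors turn positive, at 0.33 and 0.25. That scaling gives 1966 rises and 442 falls over all genes from E11.5 to E13.5, against 1068 and 866 with TMM. It gives 2870 and 1761 between E11.5 and E17.5, against 2281 and 2205, and 577 and 1138 from E15.5 to E17.5, against 745 and 932.

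**Figure D2:**
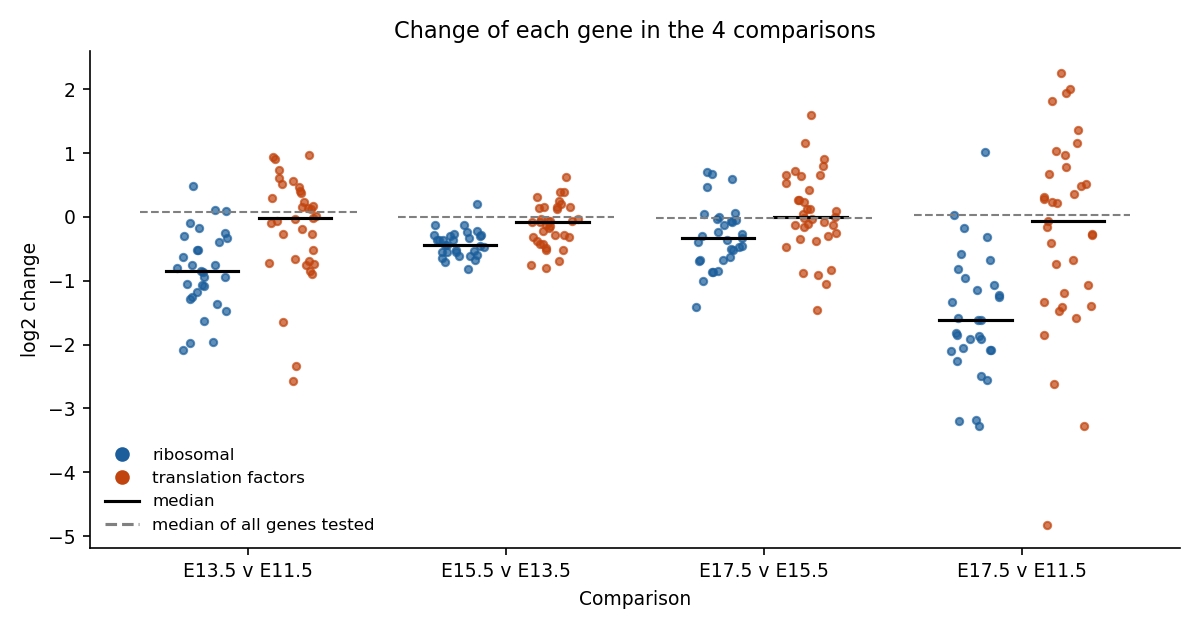
The log2 change (vertical axis) of each ribosomal gene (blue) and translation factor gene (orange) in the 4 comparisons between stages (horizontal axis), with the group median as a black line and the median of all 7651 genes tested as a dashed line. The ribosomal medians are -0.84, -0.44, -0.33 and -1.61, while those of the translation factors lie between -0.08 and -0.005.

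The ribosomal falls were also measured without the libraries that stood apart. From E13.5 to E17.5, in a fit without the E11.5 libraries, 12 of 31 ribosomal genes fell and 0 rose, with a median of -0.77, where 19.6% of all genes fell and the median of all was -0.005. In that fit 4 translation factor genes rose and 6 fell among the 34 tested, since Eif1a did not pass the filter there. Without the 4 libraries numbered 2, 24 ribosomal genes fell and 1 rose between E11.5 and E17.5, with a median of -1.47. These repeats were chosen after the data were seen.

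Markers of other cells moved with the same stages, and their part in these changes was not tested. Of 12 markers of cortical neurons 9 had a row, and their sum ranged from 783 to 967, 3550 to 3990, 4590 to 5900 and 5950 to 7120 CPM in stage order. Between E11.5 and E17.5, 8 of the 9 rose and 0 fell. From E15.5 to E17.5, 3 rose and 2 fell, with a median of -0.14. Of 10 erythroid markers only Alas2 and Ermap had a row, and their sum ranged from 46.9 to 53.8, 1.43 to 1.74, 0.374 to 1.56 and 0 to 0.292 CPM. All 7 markers of meninges and mesenchyme had a row, with sums of 390 to 464, 499 to 537, 52.2 to 65.2 and 5.57 to 6.77 CPM. All 7 fell between E11.5 and E17.5, but 2 rose and 2 fell from E11.5 to E13.5. The cortex's own progenitor markers, of which 7 of 10 had a row, summed to 1300 to 1950 CPM at E11.5 and 1650 to 2280 CPM at E17.5, but the genes differed. Of the 7, 1 rose and 4 fell between these stages, with a median of -1.26. Fabp7 went from 179 to 1420 CPM and carried most of the E17.5 sum, while Emx2 went from 790 to 44.4 CPM and Pax6 from 163 to 68.2 CPM.

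Among the large subunit genes 17 of 20 fell between E11.5 and E17.5 and none rose, with a median of -1.87. Over all genes 28.8% fell and 29.8% rose. Rpl12, a protein of the base of the ribosomal stalk, had 4648, 4357 and 5553 CPM at E11.5 and 1368, 836 and 1225 CPM at E13.5. It then had 788, 672 and 680 CPM at E15.5 and 522, 395 and 587 CPM at E17.5. No library of a later stage reached those of an earlier one. Its change over the whole course was -3.28 ± 0.29, or 9.68-fold lower (edgeR's quasi-likelihood F test, adjusted p = 1.13e-07), and -2.09 ± 0.28 came in the first step. Rpl12 fell at both of its peaks, at -3.45 and -3.14, of which the second also overlaps the small nucleolar RNA (snoRNA) gene Snora65.

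Rplp1, an acidic protein of the stalk itself, had 5809, 5130 and 7144 CPM at E11.5 and 980, 566 and 416 CPM at E17.5, so that the groups were far apart. It fell by 3.20 on the log2 scale (SE 0.42, adjusted p = 6.38e-06). Rpl28 had 1344, 1380 and 1482 CPM at E11.5 and 279, 161 and 273 CPM at E17.5, a change of -2.56 ± 0.31. Rpl29 had 645, 262 and 315 CPM at E11.5 and 84.5, 47.9 and 85.6 CPM at E17.5. The first E11.5 library stood above the other two, all 3 lay above the E17.5 libraries, and its change was -2.49 ± 0.42.

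Rpl6, Rpl22l1 (a paralog of Rpl22), Rpl31, Rpl36, Rpl39 and Rpl13 fell by 2.10, 2.08, 2.08, 2.06, 1.91 and 1.91 on the log2 scale. For each of these 6 genes all E17.5 libraries lay below all E11.5 libraries. Rpl10a and Rpl24 changed by -1.82 ± 0.34 and -1.61 ± 0.31, and Rpl3, which lies near the catalytic centre, by -0.96 ± 0.30. The call for Rpl3 was lost without E11.5 replicate 3 or without E17.5 replicate 3 (edgeR adjusted p of 0.0606 to 0.0628) and with scaling by the total (0.0692). Rpl37a, Rpl37, Rpl38 and Rpl27 completed the genes that fell, at -1.61, -1.22, -1.15 and -1.06.

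The 3 large subunit genes that did not pass were Rpl11, Rpl37rt and Rpl36al. Rpl36al, a paralog of Rpl36a, had 748, 385 and 695 CPM at E11.5 and 459, 474 and 938 CPM at E17.5, and the ranges overlapped (0.03 ± 0.35). Rpl37rt, a retrotransposed copy, had 4231, 3493 and 3668 CPM at E11.5 and 3347, 1468 and 2307 CPM at E17.5, a change of -0.68 ± 0.36 (edgeR adjusted p = 0.109). Rpl11, a protein that can also bind Mdm2, stood at -0.57 ± 0.33, but its 2 peaks differed: one at chr4:136052793-136053221 (mm10), called 5UTR in the table, fell by 1.60, and the other, called 3UTR, stood at -0.31.

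Of the 10 small subunit genes 7 fell and none rose, with a median of -1.46, where 28.8% of all genes fell and 29.8% rose. Rps27l, a paralog of Rps27 that is known as a p53 target, had 238, 253 and 302 CPM at E11.5 and 66.5, 66.9 and 69.6 CPM at E13.5. It had 62.3, 48.7 and 46.8 CPM at E15.5 and 28.7, 31.8 and 26.6 CPM at E17.5. Replicates lay close together at every stage and the stages did not overlap. Its change was -3.18 ± 0.25, or 9.09-fold lower (edgeR adjusted p = 3.25e-08), and -1.96 ± 0.24 came in the first step. Its only peak lies at chr9:66949291-66949695 (mm10), called 3UTR in the table, and shares no 50-base word with a transcript of another gene.

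Rps4x, the X-linked copy of a small subunit protein, had 941, 1239 and 1266 CPM at E11.5 and 335, 228 and 158 CPM at E17.5, a change of -2.26 ± 0.32. Rps23, a protein of the decoding centre, fell from 104, 117 and 154 CPM to 35.5, 21.3 and 45.6 CPM (-1.87 ± 0.33), and Rps27rt changed by -1.85 ± 0.28. None of these 3 genes had an E17.5 library as high as any at E11.5. Rps26, which sits at the mRNA exit, had 10300, 9350 and 11080 CPM at E11.5 and 4070, 2518 and 3649 CPM at E17.5. It changed by -1.59 ± 0.30 and was the most abundant of the 66 genes per kilobase of peak, at 22200 CPM per kilobase at E11.5 and 7390 at E17.5.

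Rps27 changed by -1.26 ± 0.43. Its libraries overlapped between the stages, with 5002, 2002 and 3746 CPM at E11.5 and 1114, 913 and 2466 CPM at E17.5. Its call was lost without E11.5 replicate 1, E17.5 replicate 1 or E17.5 replicate 2 (edgeR adjusted p of 0.0709 to 0.097) and with scaling by the total.

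Rps3, which lines the mRNA entry channel, was the main exception among the abundant genes. It had 2899, 2462 and 2677 CPM at E11.5, 2436, 2083 and 3028 CPM at E13.5, 1982, 2084 and 2141 CPM at E15.5 and 2687, 1714 and 2091 CPM at E17.5. The ranges of E11.5 and E17.5 overlapped, and the change was -0.31 ± 0.26 (edgeR adjusted p = 0.32). Both of its peaks gave the same picture, at -0.30 and -0.27, the first of which overlaps the snoRNA gene Snord15b. Rps27a, a fusion of ubiquitin with a ribosomal protein, stood at -0.82 ± 0.40 (adjusted p = 0.0871) with overlapping ranges, and Rps4l at -0.18 ± 0.34. Rps27a has a second limit, since rows opposite its peak are assigned to Clhc1 and held 101 to 976 counts a library.

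Rps19bp1 rose. Its product, also called AROS, binds Rps19 and is known as a regulator of the deacetylase SIRT1. It had 128, 143 and 186 CPM at E11.5 and 213, 281 and 421 CPM at E17.5, without overlap, a change of 1.01 ± 0.36 (edgeR adjusted p = 0.0238).

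**Figure D3:**
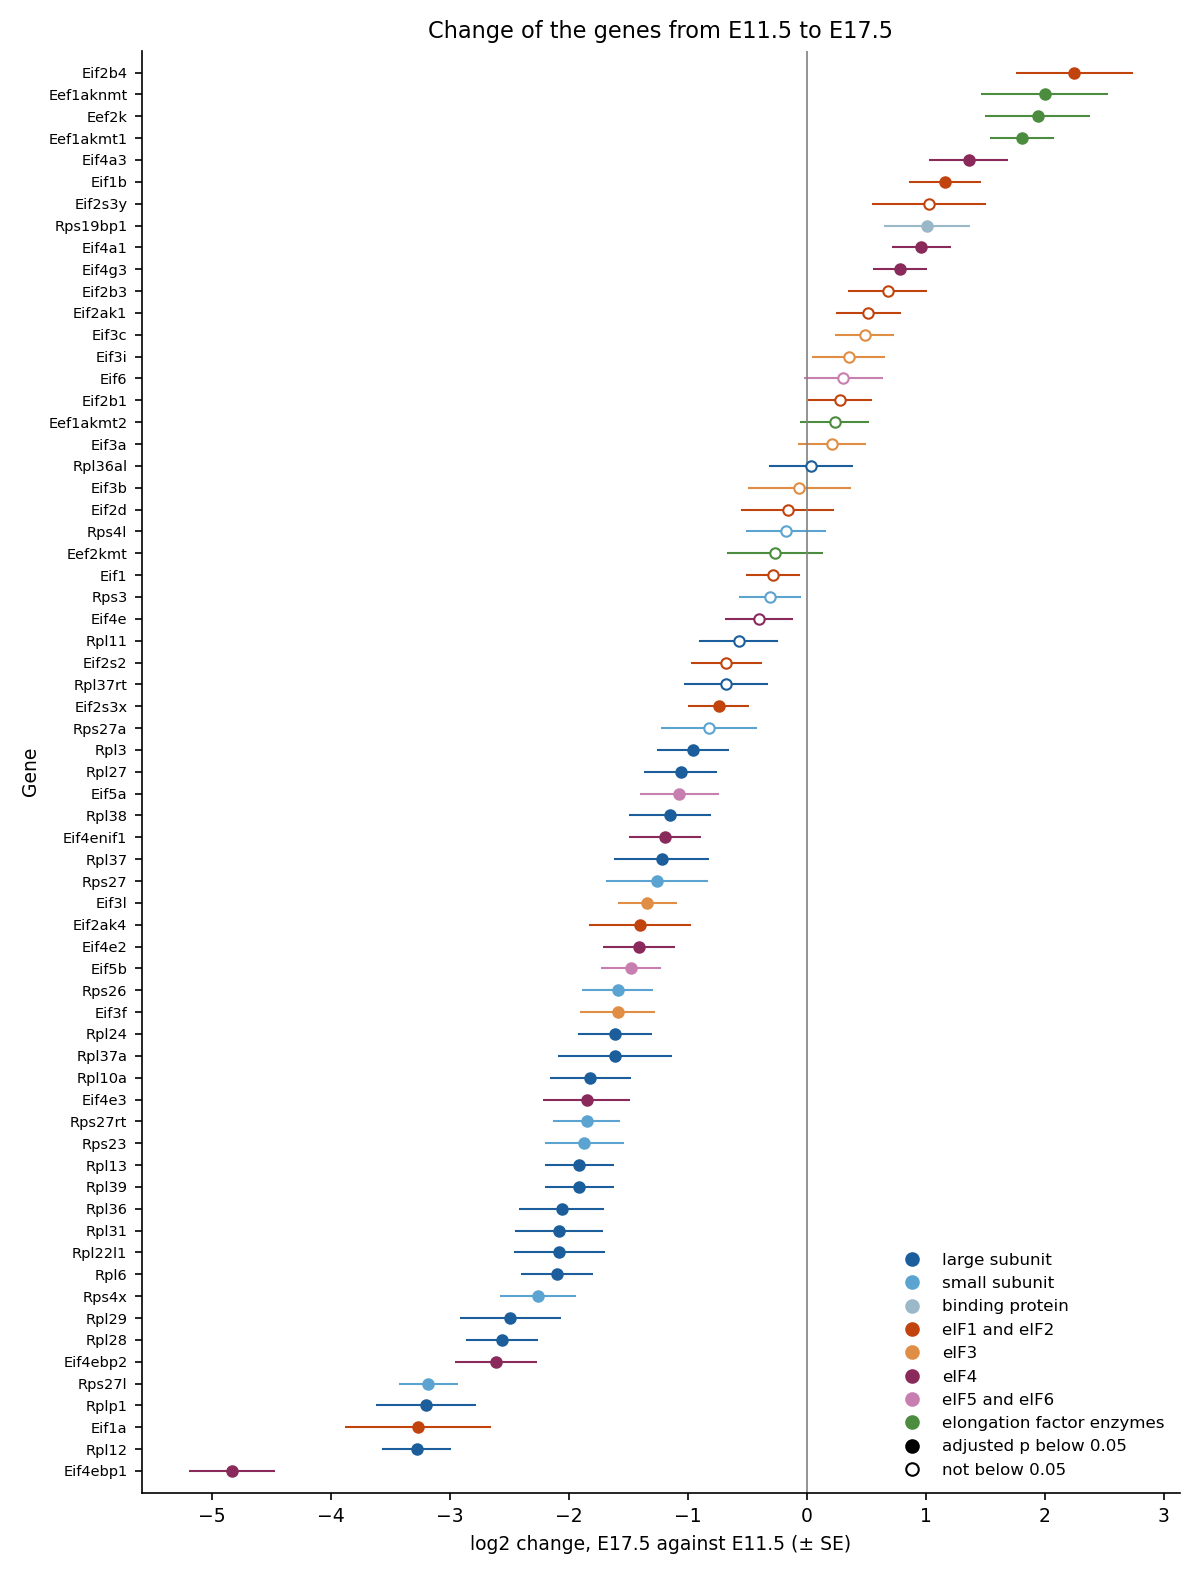
The log2 change from E11.5 to E17.5 (horizontal axis, ± SE) of the 66 genes except 1 that is not shown (vertical axis), ordered by change and coloured by role; filled points have an adjusted p below 0.05 in edgeR's quasi-likelihood F test. No filled point of a subunit gene lies above 0, and of the 35 translation factor genes 12 are filled below 0 and 8 above.

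Most of the matched genes with a TOP start fell between E11.5 and E17.5, and so did part of those without one. All 11 ribosomal genes with a tract fell between E11.5 and E17.5, with a median of -1.91, while of the 13 without one 8 fell and 1 rose, with a median of -1.22. Of the translation factor genes shown above with a tract, Eif3f changed by -1.59 ± 0.31 and Eif2s3x by -0.74 ± 0.26, while Eif2s3y and Eif2ak1 stood at 1.03 ± 0.48 and 0.52 ± 0.27 without passing. Of the others with a tract, Eif2ak4, Eif3l and Eif4enif1 fell, and Eif3b stood at -0.06 ± 0.43. Of the genes shown without a tract, Eif4ebp2 and Rpl6 fell, Rps3 did not pass, and Eif4a1, Eif1b and Eif2b4 rose. Over all 52 matched genes 16 of 19 with a tract fell and 0 rose, against 12 that fell and 8 that rose of 33 without. Over all genes tested 28.8% fell and 29.8% rose, and the shares over all genes with a tract were not computed. Of the 19 genes 11 are ribosomal, so tract and gene family cannot be told apart in these counts. The difference between the groups with and without a tract was not tested.

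Ribosomal protein genes have many processed copies, and how multiply mapped reads were counted is not given in the sources used here. For 6 ribosomal genes (Rpl13, Rpl36, Rpl36al, Rpl37rt, Rplp1 and Rps4x) more than 50% of the 50-base words of the peaks also occur in a GENCODE transcript of another gene, so their counts are uncertain. Of the other 25 ribosomal genes 20 fell and 1 rose, with a median of -1.61. Of the 5 with no shared word, namely Rpl11, Rpl29, Rpl37a, Rps27l and Rps19bp1, 3 fell and 1 rose. For Rpl11 only the peak called 5UTR could be searched, since the other overlaps 30 exon bases, too few for a 50-base word. Transcripts alone were searched, so copies outside annotated transcripts were not counted. No translation factor gene passed the 50% mark.

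Among the translation factors the eIF4 group had the widest range of changes between E11.5 and E17.5. Of its 9 genes 3 rose and 5 fell, where 29.8% of all genes rose and 28.8% fell. The share that rose lay near that over all genes. Eif4ebp1, a 4E-binding protein that keeps eIF4E from eIF4G, showed the largest change of all 66 genes. It had 179, 104 and 178 CPM at E11.5, 29.3, 20.3 and 27.8 CPM at E13.5, 17.4, 12.2 and 14.6 CPM at E15.5 and 6.50, 3.21 and 6.33 CPM at E17.5. Each stage lay wholly below the one before it. The change over the whole course was -4.83 ± 0.36, or 28.4-fold lower (edgeR adjusted p = 1.94e-08), with -2.57 ± 0.31 in the first step and -1.45 ± 0.34 in the last. All 3 of its peaks fell, between -5.90 and -4.63, at chr8:27260437-27260747, chr8:27273283-27273715 and chr8:27275213-27275626 (mm10).

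Eif4ebp2, the form of the same inhibitor that prevails in the mature brain, had 424, 471 and 585 CPM at E11.5, 113, 164 and 194 CPM at E13.5, 212, 110 and 126 CPM at E15.5 and 88.9, 107 and 46.9 CPM at E17.5. Its E11.5 libraries lay above all others and its later stages were less clearly apart. It changed by -2.61 ± 0.35 over the whole course and by -1.65 ± 0.33 in the first step. From E13.5 to E17.5, in the fit without E11.5, Eif4ebp1 changed by -2.25 ± 0.36 and Eif4ebp2 by -0.95 ± 0.35 (edgeR adjusted p = 0.000217 and 0.0416).

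Of the cap-binding proteins, Eif4e itself had 167, 140 and 102 CPM at E11.5 and 133, 77.3 and 98.5 CPM at E17.5, and it stood at -0.40 ± 0.29 with overlapping ranges (edgeR adjusted p = 0.237). Eif4e2, a cap-binding protein that acts in repression, changed by -1.41 ± 0.30, and Eif4e3, a less studied cap-binding relative, by -1.85 ± 0.37. Neither had an E17.5 library as high as any at E11.5. Eif4enif1, a carrier of eIF4E to the nucleus and to P-bodies, changed by -1.19 ± 0.30, and all 7 of its peaks lay below 0, with 5 that fell. Opposite 5 of these peaks the table has rows assigned to Drg1.

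The helicase and scaffold genes went the other way. Eif4a1, the main helicase of initiation, had 743, 776 and 692 CPM at E11.5 and 1366, 1355 and 960 CPM at E13.5. It had 1193, 1418 and 1421 CPM at E15.5 and 1270, 1704 and 1335 CPM at E17.5. The E11.5 libraries lay below all 9 later ones, and the change over the whole course was 0.96 ± 0.25 (edgeR adjusted p = 0.00312). Both of its peaks overlap snoRNA genes (Gm24029 and Gm25835), so reads of the host mRNA and of the snoRNA cannot be told apart. Eif4a3, the helicase that anchors the exon junction complex, changed by 1.36 ± 0.33, from 118, 61.7 and 146 CPM to 223, 258 and 354 CPM.

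Eif4g3, a scaffold that bridges the cap-binding protein and eIF3, had 156, 160 and 131 CPM at E11.5 and 253, 260 and 258 CPM at E17.5. Its E17.5 libraries lay above those of every other stage, with changes of 0.78 ± 0.22 over the whole course and 0.65 ± 0.22 in the last step. Of its 6 peaks 2 rose, at 1.22 and 1.27, and 1 of the 2 called 5UTR stood at -0.62 without passing.

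**Figure D4:**
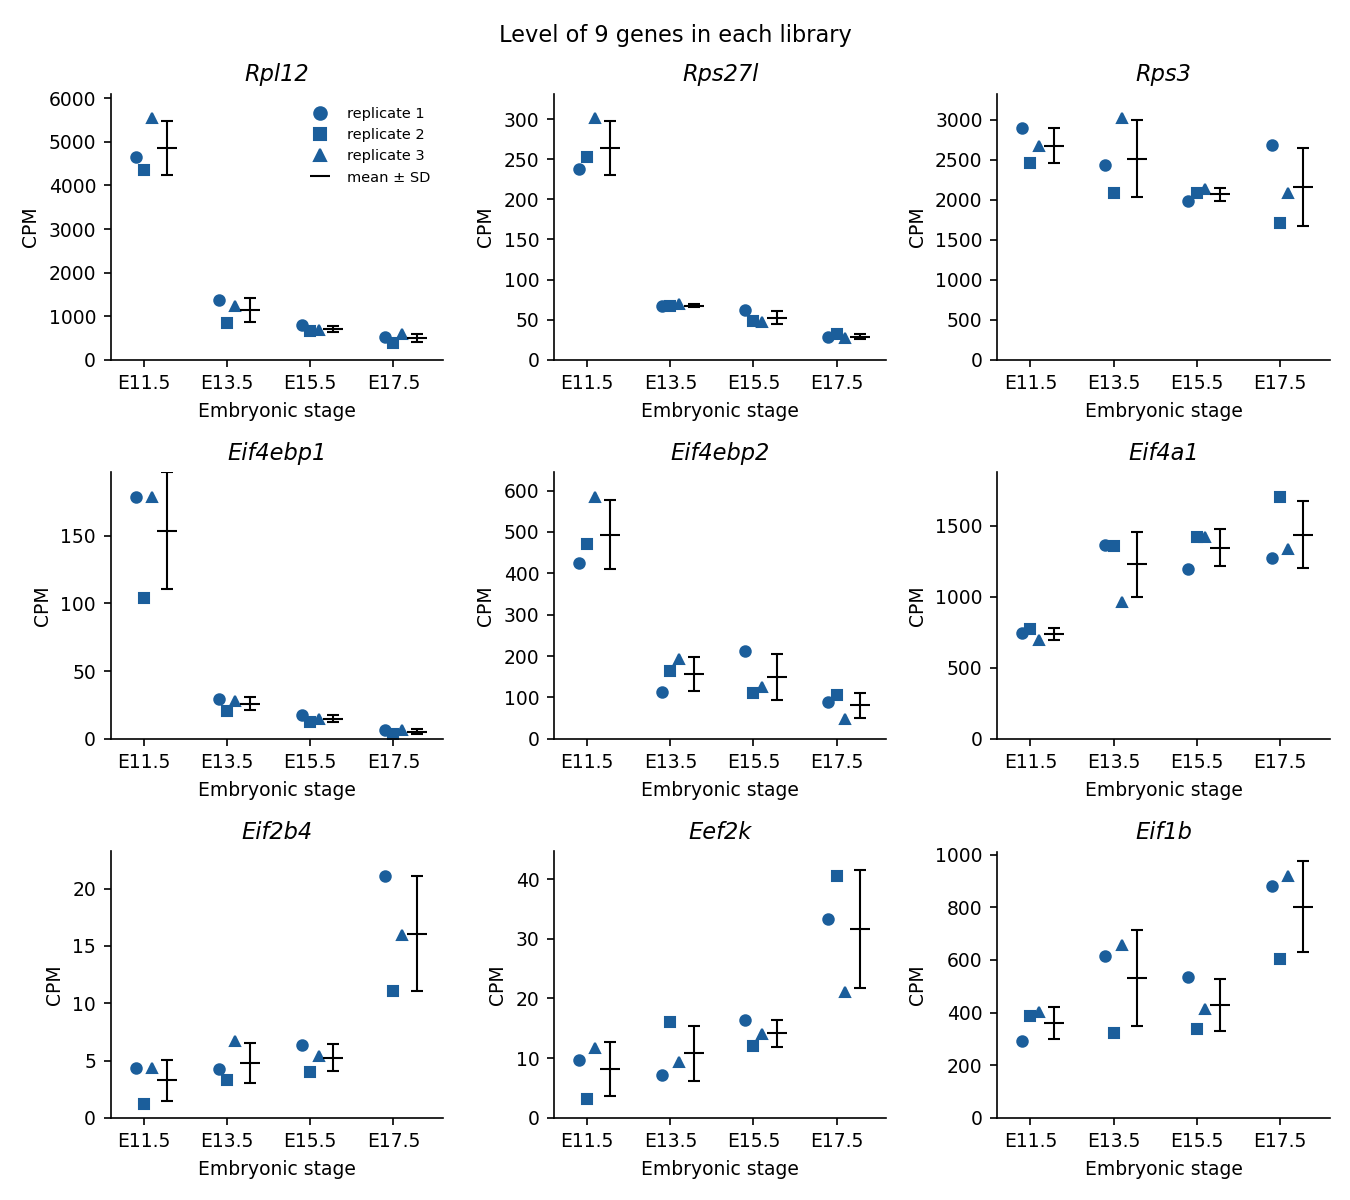
Level in CPM (vertical axes, each from 0) of 9 genes in each of the 12 libraries by embryonic stage, with symbols for replicates and black bars for mean ± SD (n = 3). Rpl12, Rps27l, Eif4ebp1 and Eif4ebp2 are highest in the 3 E11.5 libraries, Rps3 overlaps between stages, and Eif4a1, Eif2b4, Eef2k and Eif1b are higher at E17.5 than at E11.5.

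Of the 12 genes of eIF1 and eIF2, 2 rose and 3 fell between E11.5 and E17.5, both below the shares over all genes (29.8% and 28.8%). Eif2b4, a subunit of eIF2B, the factor that recharges eIF2 with GTP, had 4.32, 1.24 and 4.32 CPM at E11.5, 4.24, 3.34 and 6.74 CPM at E13.5 and 6.33, 4.0 and 5.42 CPM at E15.5. It had 21.1, 11.1 and 16.0 CPM at E17.5, above all 9 other libraries. The rise was 2.25 ± 0.49 over the whole course and 1.60 ± 0.42 in the last step (edgeR adjusted p = 0.000795 and 0.0115). It rests on low counts, with 9, 2 and 7 counts at E11.5, and the call of the last step was lost without E17.5 replicate 1 (edgeR adjusted p = 0.056). The other eIF2B subunits with a row, Eif2b1 and Eif2b3, stood at 0.28 ± 0.27 and 0.68 ± 0.33 and did not pass.

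Eif1b, a close relative of the start-codon factor eIF1, had 291, 388 and 401 CPM at E11.5 and 882, 604 and 920 CPM at E17.5. The groups were apart, and it rose by 1.16 ± 0.30. Eif1 itself had 528, 538 and 590 CPM at E11.5 and 437, 397 and 527 CPM at E17.5, also without overlap, and stood at -0.28 ± 0.23 without passing (edgeR adjusted p = 0.3). Eif1a, which works with eIF1 at the start codon, fell by 3.27 ± 0.61, from 19, 13 and 21 counts at E11.5 to 2, 7 and 2 counts at E17.5.

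Eif2s3x and Eif2s3y encode the same subunit of eIF2 from the X and the Y chromosome. Eif2s3x changed by -0.74 ± 0.26, a call that was lost without E11.5 replicate 1, E11.5 replicate 2 or E17.5 replicate 3 (edgeR adjusted p of 0.0539 to 0.0743), without the 4 libraries numbered 2 and with scaling by the total (0.151). Eif2s3y stood at 1.03 ± 0.48 (adjusted p = 0.0729), with 7.69, 21.0 and 6.79 CPM at E11.5 and 22.5, 32.4 and 17.2 CPM at E17.5. Of the kinases that phosphorylate eIF2 under stress, Eif2ak4 (GCN2) changed by -1.40 ± 0.43, a call lost when the 4 libraries numbered 2 were left out (adjusted p = 0.0714). Eif2ak1 (HRI) stood at 0.52 ± 0.27 and did not pass, and rows opposite its peaks are assigned to Aimp2.

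Of the 6 eIF3 genes 2 fell, Eif3f (-1.59 ± 0.31) and Eif3l (-1.34 ± 0.25), a share near that over all genes. Eif3l had 75.4, 74.7 and 76.5 CPM at E11.5 and 32.5, 30.6 and 26.1 CPM at E17.5, without overlap. Eif3a, the largest subunit, stood at 0.21 ± 0.29 with 489, 414 and 502 CPM at E11.5 and 471, 385 and 772 CPM at E17.5. Eif3c rose only in the last step, by 0.73 ± 0.25, and its 2 peaks stood at 1.36 and -0.49 over the whole course, the first of which rose.

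Eif5b, which joins the subunits at the end of initiation, changed by -1.48 ± 0.25, from 281, 310 and 253 CPM at E11.5 to 104, 88.4 and 109 CPM at E17.5. All 10 of its peaks lay below 0, between -1.72 and -1.10, and 9 fell. Eif5a, the factor that carries hypusine, had 3114, 2025 and 4473 CPM at E11.5 and 1549, 1722 and 1300 CPM at E17.5. It changed by -1.07 ± 0.33, and the call was lost without E11.5 replicate 3 (edgeR adjusted p = 0.0727) and with scaling by the total (0.0545). Eif6, which keeps free large subunits from joining too early, stood at 0.31 ± 0.33.

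Enzymes that act on elongation factors held the other large rises between E11.5 and E17.5. Of these 5 genes 3 rose and 0 fell, where 29.8% of all genes rose and 28.8% fell. Eef1akmt1, a lysine methyltransferase of eEF1A, had 41.8, 24.7 and 29.6 CPM at E11.5, 70.3, 59.5 and 50.7 CPM at E13.5, 67.9, 75.4 and 71.8 CPM at E15.5 and 97.8, 114 and 127 CPM at E17.5. E11.5 lay below and E17.5 above all other libraries, and the change was 1.81 ± 0.27 (edgeR adjusted p = 2.32e-05), with a rise at all 3 peaks. Eef2k, the kinase that slows elongation by phosphorylating eEF2, had 9.61, 3.09 and 11.7 CPM at E11.5 and 33.3, 40.6 and 21.0 CPM at E17.5, a change of 1.94 ± 0.44. Eef1aknmt, a methyltransferase of eEF1A, changed by 2.0 ± 0.53 from 6, 18 and 20 counts at E11.5 to 110, 115 and 158 at E17.5. Eef1akmt2 and Eef2kmt stood at 0.24 ± 0.29 and -0.27 ± 0.40 with overlapping ranges.

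Most calls of the first step, from E11.5 to E13.5, were falls. Beside Rpl12, Rplp1 (-1.98), Rps27l, Eif4ebp1, Eif4ebp2 and Eif1a (-2.33), Rps27rt (-1.63), Rps4x (-1.47), Rpl37 (-1.37), Rps23 (-1.28), Rpl28 (-1.17), Rpl36 (-1.08), Rpl10a (-1.06), Rpl6 (-1.05), Rpl13 (-0.93), Eif5b (-0.89), Eif3l (-0.85) and Rps26 (-0.84) fell. The 3 that rose were Eif4a3, Eef1akmt1 and Eif4a1, at 0.93, 0.90 and 0.74. Each of these 3 lost its call in 3 to 6 of the 12 fits that left out 1 library (edgeR adjusted p up to 0.243). Among the falls, Rps26 lost its call in 8 of these fits (adjusted p up to 0.164), Rpl13 and Rpl36 in 4 each, Rpl10a and Rpl6 in 3 each, and Eif3l and Eif5b in 1 each, without E13.5 replicate 3. Leaving out any 1 E11.5 or E13.5 library, E15.5 replicate 1 or 3, or E17.5 replicate 1 or 3 ended at least 1 of the other calls.

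The last step, from E15.5 to E17.5, had the least stable calls. Eif2b4, Eef2k, Eif1b, Eif3c and Eif4g3 rose, by 1.60, 1.16, 0.91, 0.73 and 0.65. Eif4ebp1, Rpl29, Eif4e3, Rps27l and Rpl28 fell, by 1.45, 1.41, 1.05, 0.86 and 0.84 on the log2 scale. In 9 of these 10 genes the libraries of the stages did not overlap, and Eif4e3 was the exception. Over all genes tested 17.7% lay higher and 19.7% lower without overlap. The 10 genes were picked by p-values from the same libraries, so the lack of overlap is no further support for their calls. Only Eif4ebp1 passed under every alternative tried; without E17.5 replicate 1 the count of called genes dropped from 10 to 2. It was 5 without E15.5 replicate 1 or E17.5 replicate 3 and 4 without E15.5 replicate 3.

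Per kilobase of peak, Rps26 (12900 CPM per kilobase over the 12 libraries), Rpl39 (8390), Rpl27 (7760), Rpl37rt (7410) and Rplp1 (5810) led the ribosomal genes. Eif5a (5110) and Eif4a1 (1660) led the translation factors. Mean levels were highest at E11.5 in 43 of the 66 genes, at E13.5 in 6, at E15.5 in 2 and at E17.5 in 15. The same count over all genes was not made, so nothing is read from it about the 66. It also depends on the scaling, since TMM factors of 0.8125 to 0.8481 at E11.5, against 1.019 to 1.139 later, lift the E11.5 levels.

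The peaks of the ribosomal genes were called 5UTR in a larger share than others: 25.6% of 39 rows, against 7.89% of 76 rows of the translation factor genes and 8.26% of all gene rows. However, 14 of the 16 rows of both groups called 5UTR overlap coding sequence in GENCODE. Of the 115 rows 90 overlap coding sequence. A further limit is that 7 rows, those of Eif4a1 and rows of Rpl12, Rpl37 and Rps3 among them, overlap a snoRNA gene on the same strand. Among 25 genes with several peaks, 18 had all peaks on 1 side of 0 between E11.5 and E17.5, 7 had peaks on both sides, and 0 had both a peak that rose and a peak that fell.

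Other genes of protein synthesis, from lists written down with the tests, were counted in the same way between E11.5 and E17.5, where 29.8% of all genes rose and 28.8% fell. For biogenesis, upstream control and the neuronal RNA-binding and repressor proteins the counts lay below or near those shares, so nothing is read from them about the lists. Of 20 genes of termination, recycling and poly(A) binding 13 were tested, and 1 rose and 8 fell, with a median of -1.14. Pabpc1, the main cytoplasmic poly(A)-binding protein, went from 33200 CPM at E11.5 to 10300, 5760 and 3920 CPM at the later stages (-3.08 ± 0.28). Pabpc4 changed by -2.77 ± 0.25, whereas Mcts1, which acts in reinitiation, rose by 2.07 ± 0.37.

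Of 23 cytoplasmic aminoacyl-tRNA synthetases, which load tRNAs, 13 were tested; 6 rose and 1 fell, with a median of 1.03. Farsa, Yars and Aars, for phenylalanine, tyrosine and alanine, rose by 2.07 ± 0.25, 1.80 ± 0.26 and 1.77 ± 0.26. Of 38 genes of ribosome biogenesis 27 were tested; 6 rose and 7 fell, with a median of 0.04. Nop58, a snoRNP core protein, changed by -3.35 ± 0.37, Rrp1 by 3.34 ± 0.42, and the growth regulator Myc by 4.09 ± 0.45, from 3.70 to 64.0 CPM.

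Of 24 genes upstream of translation (mTOR, S6 kinases, MNK) 18 were tested; 3 rose and 5 fell, with a median of -0.09. Larp1, which binds TOP mRNAs, rose in the last step by 0.78 ± 0.26. The kinases Rps6ka3 and Rps6ka6 changed by -2.02 ± 0.26 and -2.74 ± 0.42 over the whole course, and Rhebl1, a relative of the mTOR activator Rheb, by 1.93 ± 0.30. A list of 23 genes for RNA-binding and repressor proteins known in neurons had 14 tested. Of these 2 rose and 3 fell, with a median of -0.29. Not all genes of this list, Nova1 among them, are translational repressors. Nova1 and Ago2 changed by -2.32 ± 0.28 and -2.14 ± 0.28, and Fxr2, a relative of the fragile X protein, by 1.89 ± 0.29.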

How the data were processed

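RNA bound to STAU2 was sequenced from 12 libraries (3 at each of 4 stages); per the labels' protocols, Ribo-Zero took out ribosomal RNA and the ScriptSeq kit, which marks the strand, was used. The authors deposited whole-number counts per merged peak and strand. HOMER 4.10 and 2 build names, mm10 and GRCm38, are listed per the submitters' processing notes. No aligner, counting setting or rule for multiply mapped reads was found in those sources.

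Counts of rows not called Intron or Intergenic were summed per gene (7702 genes). The 7651 genes kept by filterByExpr were tested with edgeR 4.0.16 (R 4.3.3): TMM scaling, quasi-likelihood F test, 1 fit over the 4 stages with no replicate block, Benjamini-Hochberg adjustment at 0.05. The common biological coefficient of variation was 0.295. DESeq2 1.42.0 was an alternative. The procedure was tested on simulated data. Library totals, which set the precision, are in the results. Peaks were compared with GENCODE vM21 and starts with RefSeq windows on GRCm38.p6.

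Genes named are the 24 with the smallest p over the stages, the 5 largest rises and falls per comparison, the 8 most abundant, those of a fixed set of 33 that had a row (19), and up to 3 per other list; further genes were named to complete a group, with their values known. The members, lists and rules were chosen with earlier results of these data known. Alternatives were other scalings, filters, row selections, fits and libraries left out, as given at the end. Inputs were not analysed here, and 1 of the 66 genes and 1 marker gene are counted but not reported by name here.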

Additional observations from a re-analysis of the deposited data

Results flagged for a closer look

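Rows named as pseudogenes of the same families were outside the comparisons, but they held counts well above 3. The highest mean count over the 3 libraries of a stage was 15240 for Rpl31-ps8 (E15.5), 14947.3 for Rps26-ps1 (E13.5), 4155 for Eif4a-ps4 (E15.5) and 2760.7 for Eif1-ps1 (E13.5). It was 287.7 for Eif5al3-ps (E13.5), 242 for Rpl10-ps3 (E17.5) and 105.3 for Eif3s6-ps3 (E15.5). Rps26-ps1 held 10824 counts a library at E11.5 and 7236 at E17.5, and Rpl31-ps8 held 9513.3 and 5306. These counts were not scaled, and the later libraries held more counts than those of E11.5, so they do not rank the stages. Whether these reads came from the parent genes was not tested.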

How the results depend on the processing

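Numbers of the 66 genes called were recomputed under each alternative. With only rows called 3UTR summed, which leaves fewer genes, 20 changed over the 4 stages, 10 from E11.5 to E13.5, 5 from E15.5 to E17.5 and 20 between E11.5 and E17.5. With each row as its own feature 6 genes had a changed row from E15.5 to E17.5. From E13.5 to E17.5 without the E11.5 libraries 22 changed, all among the 45 called between E11.5 and E17.5. Leaving out 1 library gave 38 to 45 over the stages, 15 to 23 from E11.5 to E13.5, 0 from E13.5 to E15.5, 2 to 10 from E15.5 to E17.5 (lowest without E17.5 replicate 1) and 42 to 46 between E11.5 and E17.5. Deviations from the stage means correlated at -0.184 to 0.511 (median 0.128) between libraries of the same number, with 11 of 18 pairs over 0.1 and all 6 pairs of libraries numbered 2 among them (0.122 to 0.511). Libraries of different numbers had a median of -0.184, with 9 of 36 pairs over 0.1. The labels give the numbers no meaning and not every pair was over 0.1, so the main fit has no block. With a replicate block the counts were 44, 24, 0, 11 and 47 in the same order. With scaling by the total, 5 rose and 10 fell from E11.5 to E13.5, 1 rose and 8 fell from E15.5 to E17.5, and 13 rose and 31 fell between E11.5 and E17.5. With only 3UTR rows, Eef1akmt1, E13.5 against E11.5, stood at -0.09 and Eif3c, E17.5 against E15.5, at -0.19, against rises with all rows; the alternative uses fewer peaks of these genes. It also ended the calls of Eef1akmt1 and Eif4a1 between E11.5 and E17.5 (edgeR adjusted p of 0.0907 and 0.0747). Of the named genes that were called, 10 of 20 from E11.5 to E13.5, 1 of 10 from E15.5 to E17.5 and 30 of 37 between E11.5 and E17.5 passed under every alternative that could test them. Counts of a few per library limit Eif1a, Eif2b4 and Eef1aknmt at their lowest stages.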
